A study of Mus musculus with 75 samples.

Results

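The 10 genes described here mark enteric glia and the neural crest lineage from which these cells arise: the transcription factors Sox10, Sox2, Foxd3 and Sox8, the receptor gene Erbb3, the small binding-protein genes Fabp7 and S100b, and the adhesion genes Cdh19, Ncam1 and L1cam. They were chosen by symbol, as a gauge of glial RNA and glial identity, with earlier results of these data known. All 10 were present among the 21051 symbols of the count table for untreated mice and the 2 h experiment and among the 21076 symbols of the 24 h table. Each of the 10 passed the filter on low counts in each of the 3 experiments, where 14090 genes (untreated), 13107 genes (2 h) and 14903 genes (24 h) were tested.

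The study profiled RNA of enteric glial cells from mice carrying a transgenic reporter that labels glia with green fluorescent protein. In the first experiment, untreated reporter mice gave 22 libraries: 6 from the myenteric plexus and 6 from the submucosal plexus of the small intestine, and 5 from each plexus of the colon. In the second, reporter mice received 1 intraperitoneal injection of lipopolysaccharide (LPS, a bacterial cell-wall product, 2 mg/kg) or of phosphate-buffered saline (PBS), and myenteric plexus of both regions was taken after 2 h, with 4 libraries in each of 4 groups. In the third, Gpr37WT reporter mice (here wild type) and Gpr37-/- reporter mice (here knockout) received the same LPS dose or PBS, and myenteric plexus of both regions was taken after 24 h, with 4 to 6 libraries in each of 8 groups and 37 in all. Every group carried the reporter, the Gpr37 deletion was present only in the 4 knockout groups, and libraries were made by the Smart-seq2 protocol, which amplifies cDNA without molecular identifiers. How the glial cells were separated from the gut wall is not given in the sources used here, nor is the age of the mice.

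Sox10 is an HMG-box transcription factor required for the specification and maintenance of peripheral glia, and Sox8 is a close relative from the same SoxE subgroup. Foxd3 and Sox2 are regulators of neural crest cells and progenitors that persist in glia of the adult gut. Enteric glia surround the neurons of the myenteric plexus, which lies between the muscle layers and drives motility, and of the submucosal plexus, which lies under the mucosa and controls secretion and blood flow.

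The deleted gene was checked first. Gpr37 ranged from 0 to 17.4 CPM (reads of a gene relative to the library's total, scaled by the trimmed mean of M-values) in the 19 wild-type libraries of the 24 h experiment, with a median of 6.50, and from 0 to 0.802 CPM in the 18 knockout libraries, of which 10 had no read. Of the 9 wild-type libraries given LPS, 3 also had no Gpr37 read (the small intestine of mouse 3 and the colon of mice 5 and 8) and the colon library of mouse 3 had 2 reads (0.472 CPM). These 4 lie within the knockout range, so that Gpr37 does not check their label. The small intestine library of mouse 8 had 100 reads (9.119 CPM), above the knockout range. Total counts ran from 1990744 to 33283346 per library, and the 10 genes together took between 0.0152% and 0.580% of a library's counts (median 0.126%). In bulk samples, a lower level of these genes from fewer glial cells cannot be told apart from less of their RNA per glial cell. CPM were scaled within each experiment, so that levels are compared within an experiment and not across experiments.

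Of the 10 genes, 6 had a promoter window in the RefSeq table (assembly GRCm38.p6, 250 bases before the start, without bases that lie in an annotated exon). The windows of 3 genes that differed between the plexuses in both regions are printed here 5′ to 3′ on the gene's strand, in lower case. Capitals mark matches to the SOX motif ACAAAG or ACAATG and to the RBPJ motif TGGGAA, each searched on both strands. The Sox2 window spans chr3:34649745-34649994 (plus strand), that of S100b chr10:76253586-76253835 (plus strand) and that of Fabp7 chr10:57784673-57784880 (plus strand, 208 bases, since 42 exon bases were left out).
Sox2: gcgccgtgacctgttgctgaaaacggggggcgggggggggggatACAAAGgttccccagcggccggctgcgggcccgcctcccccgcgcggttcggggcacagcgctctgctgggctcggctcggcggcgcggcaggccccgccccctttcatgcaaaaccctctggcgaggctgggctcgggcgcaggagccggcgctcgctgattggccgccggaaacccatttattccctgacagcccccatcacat
S100b: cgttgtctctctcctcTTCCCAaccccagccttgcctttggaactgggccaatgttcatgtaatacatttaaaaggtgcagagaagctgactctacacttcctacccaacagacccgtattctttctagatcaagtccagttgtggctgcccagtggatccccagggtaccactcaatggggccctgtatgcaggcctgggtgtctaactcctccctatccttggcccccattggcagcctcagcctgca
Fabp7: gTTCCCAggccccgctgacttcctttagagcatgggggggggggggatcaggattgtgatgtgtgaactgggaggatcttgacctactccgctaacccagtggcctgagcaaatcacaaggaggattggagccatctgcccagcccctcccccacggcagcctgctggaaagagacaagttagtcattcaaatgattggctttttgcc
The SOX motif was matched once, in the Sox2 window, 206 bases upstream of the start. The RBPJ motif was matched in the S100b window (234 bases upstream) and in the Fabp7 window (249 bases upstream). Of 32851 RefSeq windows of 250 bases, 25.2% held the SOX motif and 21.6% the RBPJ motif, and the matches describe these letters only. The other windows, those of Foxd3, L1cam and Sox8, held neither.

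On the scale of mean CPM per kilobase of annotated exon (GENCODE, build GRCm38), the members fell into a wide order in the myenteric plexus of the untreated small intestine. S100b (chr10:76253853-76261159, plus strand), which encodes a calcium-binding protein, had the highest value at 305, followed by Fabp7 (chr10:57784881-57788450, plus strand), a fatty acid binding protein of glia and their progenitors, at 283. Sox10 (chr15:79154908-79165240, minus strand) stood at 145, the cadherin gene Cdh19 (chr1:110888326-110977584, minus strand) at 125, and the immunoglobulin-like adhesion genes Ncam1 (chr9:49502136-49798925, minus strand) and L1cam (chrX:73853778-73896105, minus strand) at 94.1 and 58.0. The neuregulin receptor gene Erbb3 (chr10:128567523-128589652, minus strand) stood at 28.2 and Foxd3 (chr4:99656299-99658622, plus strand) at 19.1. Sox2 (chr3:34650405-34652461, plus strand) and Sox8 (chr17:25565892-25570686, minus strand) were lowest at 6.31 and 5.05. Sox8 had no read in 6 of the 75 libraries and 3 or fewer reads in 14, whereas Sox10, Foxd3, S100b, Erbb3, Ncam1 and L1cam had at least 9 reads in every library.

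**Figure D1:**
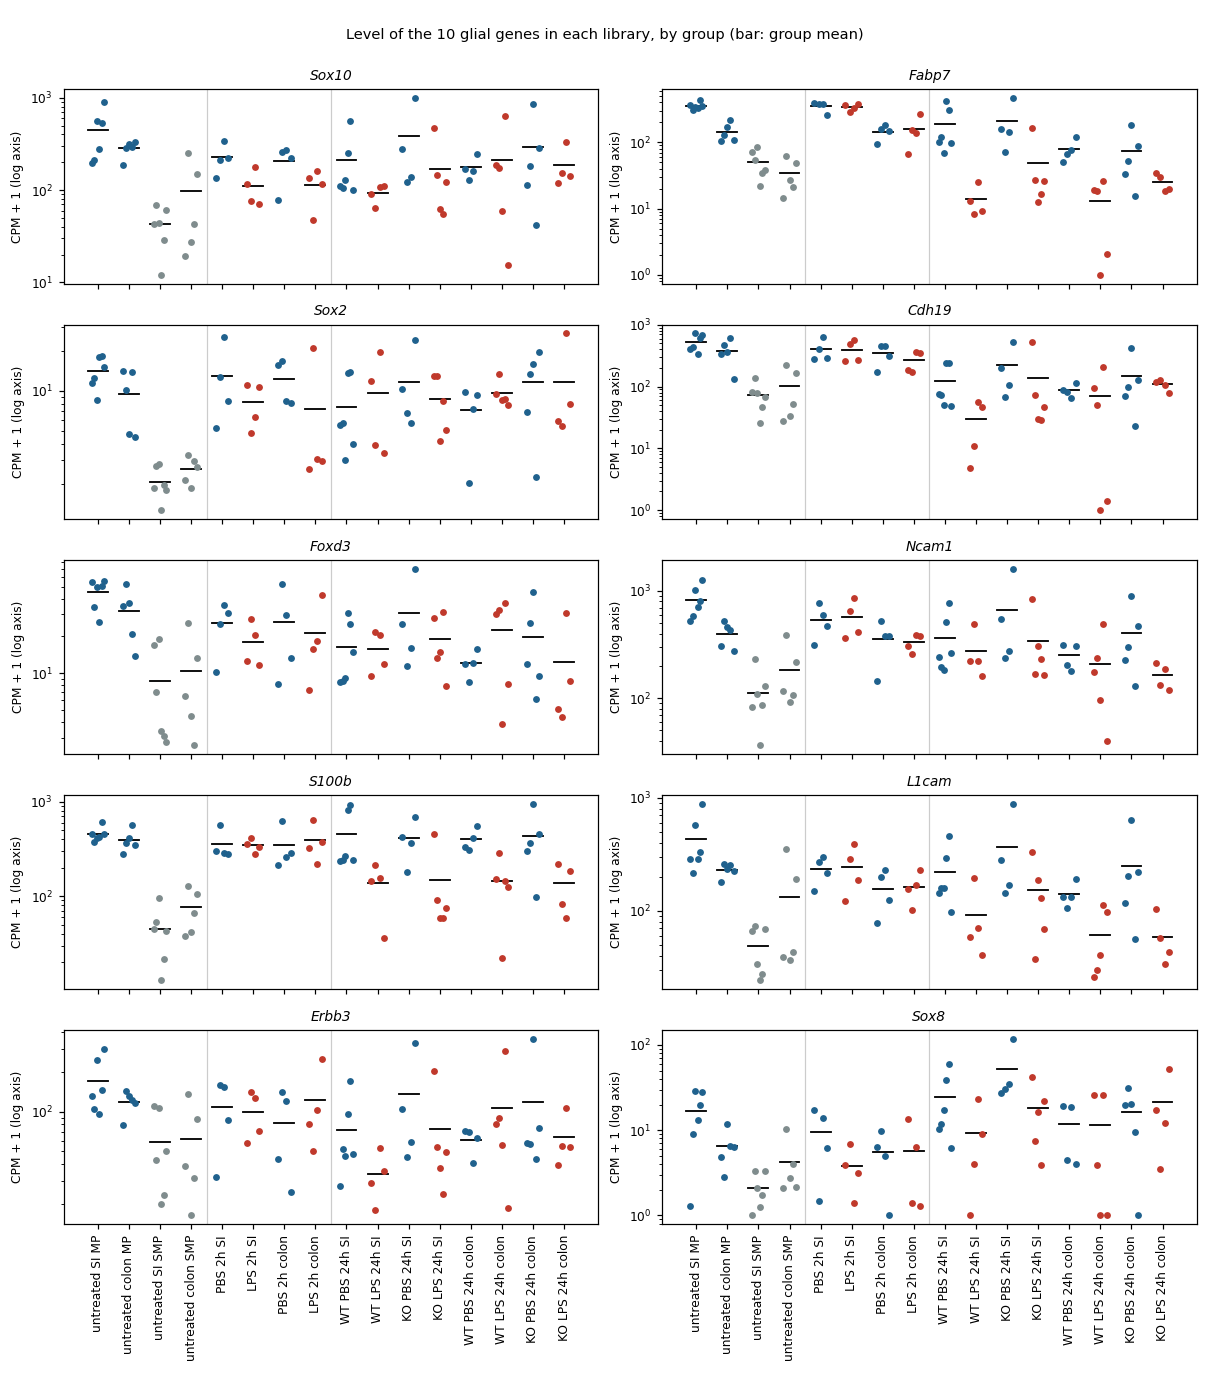
Level of each of the 10 genes in every library, as CPM plus 1 on a log axis, over the 16 groups; each point is a library, each bar a group mean, blue stands for untreated or PBS myenteric plexus, grey for submucosal plexus and red for LPS, and vertical lines separate the 3 experiments, which were scaled separately. S100b and Fabp7 lie below their untreated myenteric range in every submucosal library, and the 24 h groups spread widely and overlap.

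Some of these genes share their locus with another annotated gene. Sox2 lies within Sox2ot and L1cam overlaps Arhgap4 on the same strand, while S100b overlaps Dip2a, Ncam1 overlaps Gm11149 and Sox8 overlaps 2810468N07Rik on the opposite strand. Whether the authors' counting used strand is not given in the sources used here, so reads of these pairs may be split or shared. Between the annotated transcripts of the members, the longest identical stretch in any of the 45 gene pairs was 38 bases.

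The first comparison set the submucosal against the myenteric plexus in untreated mice, and asked how far the glial genes differ between the layers. In the small intestine, all 10 were lower in the submucosal libraries, by 1.55 (Erbb3) to 3.77 (Sox8) on the log2 scale, with a median log2 difference of -3.01 against 0.06 over all genes tested. Across all 14090 genes, 43.5% differed in this comparison and 21.2% were lower. In the colon, 4 of the 10 (Sox2, S100b, Fabp7 and Cdh19) were lower, where 21.8% of all genes differed and 11.1% were lower, and the median log2 difference of the 10 genes was -1.62 against -0.01 over all genes tested there. A gene is said to differ when edgeR's quasi-likelihood test gave a Benjamini-Hochberg adjusted p below 0.05 over all genes of that experiment, and every ± after a log2 difference is its standard error. How often compared groups do not overlap was not computed over all genes, here or in later comparisons. A lack of overlap therefore describes the named gene only.

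Among the transcription factors, Sox10 ranged from 197 to 888 CPM in the 6 myenteric libraries of the small intestine (median 404). In the 6 submucosal libraries it ranged from 11.1 to 68.8 CPM (median 42.5). The groups did not overlap, and Sox10 was lower by 3.39 ± 0.58 on the log2 scale (edgeR adjusted p = 9.44e-05). In the colon, the 5 myenteric libraries had 186, 286, 318, 292 and 327 CPM of Sox10, and the 5 submucosal libraries had 18.1, 248, 26.6, 41.6 and 148 CPM. Replicate 2 of the submucosal group lay within the myenteric range, and the log2 difference of -1.55 ± 0.59 did not pass the test (edgeR adjusted p = 0.0653).

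Sox2, a factor of progenitors and glia, ranged from 7.57 to 17.4 CPM (median 12.8) in the myenteric and from 0.264 to 1.80 CPM (median 0.896) in the submucosal libraries of the small intestine, a log2 difference of -3.62 ± 0.52 (edgeR adjusted p = 1.59e-05). In the colon it stood at 13.1, 9.07, 3.73, 12.9 and 3.502 CPM in the myenteric and at 1.11, 2.28, 0.868, 1.956 and 1.65 CPM in the submucosal libraries. Neither region overlapped between layers, and the colon difference was -2.40 ± 0.54 (edgeR adjusted p = 0.00368). Foxd3, a forkhead regulator of the neural crest, ranged from 24.8 to 55.2 CPM (median 49.4) in the small intestinal myenteric and from 1.75 to 18.0 CPM (median 4.22) in the submucosal libraries, without overlap. Its log2 difference was -2.56 ± 0.63 in the small intestine (edgeR adjusted p = 0.00241) and -1.70 ± 0.67 in the colon, where it did not pass (edgeR adjusted p = 0.0705). Sox8 was near the detection limit in submucosal libraries of the small intestine, from 0 to 2.34 CPM (median 0.917), and ranged from 0.308 to 28.2 CPM (median 15.4) in the myenteric ones. Its log2 difference of -3.77 ± 0.89 passed (edgeR adjusted p = 0.00172) although 1 myenteric library overlapped the submucosal range.

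Erbb3, whose product receives neuregulin signals in Schwann cells and their relatives, showed the smallest difference of the 10 in the small intestine, while in the colon those of Sox8 (-0.76 ± 0.87) and L1cam were smaller. It ranged from 95.4 to 299 CPM (median 138) in the myenteric and from 19.0 to 110 CPM (median 45.7) in the submucosal libraries of the small intestine, and these ranges overlapped. The log2 difference was -1.55 ± 0.48 (edgeR adjusted p = 0.0121), against -0.95 ± 0.52 in the colon (edgeR adjusted p = 0.198). As a share of the summed CPM of the 10 genes, Erbb3 took 5.02% on average in the myenteric and 13.1% in the submucosal libraries of the small intestine. This share, looked at after the values were seen, ranged from 3.79% to 6.18% in the former and from 6.33% to 21.4% in the latter, without overlap. In the colon it ranged from 4.82% to 7.43% and from 5.60% to 12.8%, and these ranges overlapped.

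S100b ranged from 370 to 604 CPM (median 438) in the small intestinal myenteric and from 11.9 to 94.9 CPM (median 42.8) in the submucosal libraries. In the colon it stood at 276, 365, 409, 572 and 343 CPM in the myenteric and at 36.99, 127, 40.4, 65.8 and 105 CPM in the submucosal libraries. The layers did not overlap in either region, with log2 differences of -3.36 ± 0.40 (edgeR adjusted p = 2.5e-06) and -2.39 ± 0.42 (edgeR adjusted p = 0.000728). Fabp7 stood at 305 to 431 CPM (median 347) against 21.0 to 83.1 CPM (median 44.9) in the small intestine. Its colon values were 105, 127, 167, 216 and 106 CPM in the myenteric and 13.7, 61.1, 25.8, 19.9 and 47.7 CPM in the submucosal libraries. The log2 differences of Fabp7 were -2.83 ± 0.35 (edgeR adjusted p = 3.45e-06) in the small intestine and -2.09 ± 0.38 (edgeR adjusted p = 0.00077) in the colon.

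Of the adhesion genes, Cdh19, a cadherin of Schwann cell precursors and peripheral glia, ranged from 333 to 727 CPM (median 530) in the myenteric and from 25.2 to 139 CPM (median 72.0) in the submucosal libraries of the small intestine. In the colon it stood at 336, 476, 362, 604 and 133 CPM against 27.0, 224, 32.99, 51.4 and 164 CPM, ranges that overlapped. It was lower by 2.88 ± 0.50 (edgeR adjusted p = 0.00012) in the small intestine and by 1.93 ± 0.53 (edgeR adjusted p = 0.013) in the colon. The colon call of Cdh19 was lost when only the groups compared were fitted (log2 difference -1.89, edgeR adjusted p = 0.0587). Ncam1 and L1cam, which neurons express as well as glia, were lower in the submucosal small intestine by 2.87 ± 0.41 and 3.15 ± 0.54 on the log2 scale (edgeR adjusted p = 1.25e-05 and 9.31e-05), without overlap. In the colon their log2 differences were -1.13 ± 0.42 and -0.80 ± 0.55 and did not pass (edgeR adjusted p = 0.0566 and 0.31).

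**Figure D2:**
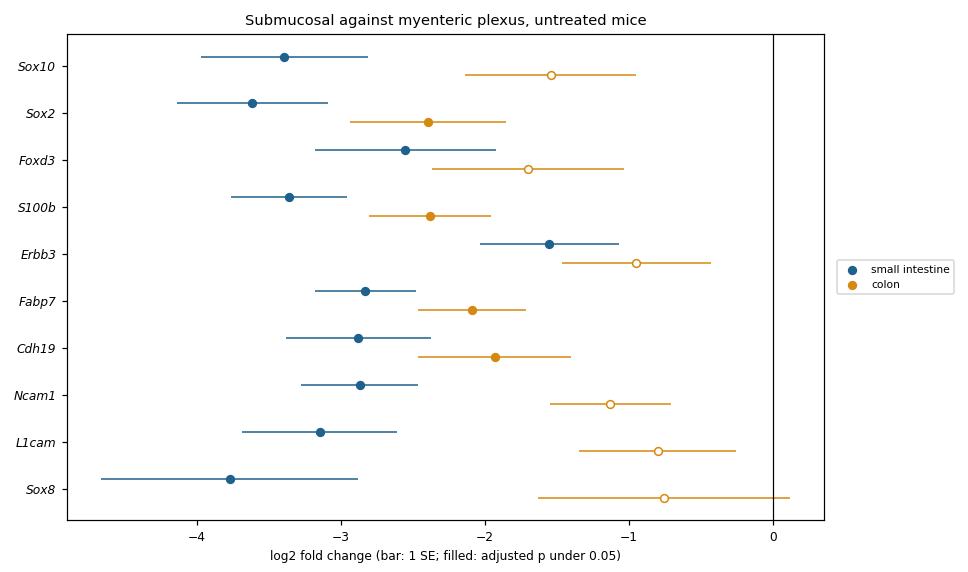
Log2 difference of submucosal minus myenteric plexus for each of the 10 genes in untreated mice, with bars of 1 standard error; blue is small intestine, orange is colon, and filled points have an adjusted p under 0.05. All 10 points of the small intestine are filled, while in the colon those of Sox2, S100b, Fabp7 and Cdh19 are.

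The colon count changed without either of 2 libraries. Submucosal replicate 2 of the colon had the highest summed level of the 10 genes in its group (1562 CPM, against 274 to 972 CPM in the other 4), a macrophage marker sum of 89.6 CPM against 2340 to 4306 CPM, and an epithelial marker sum of 7291 CPM against 1878 to 4432 CPM. Without it, 8 of the 10 genes were lower in the submucosal colon, Sox10 among them (log2 difference -2.26, edgeR adjusted p = 0.00862), and DESeq2 on all libraries called 7. Without myenteric replicate 5 of the colon the count was 6, with Foxd3 (log2 difference -1.90, edgeR adjusted p = 0.0416) and Ncam1 (-1.24, edgeR adjusted p = 0.0394) also lower. How many of all genes passed in these alternative fits is not given here, so the counts describe the 10 genes only. The difference between the regions in the layer effect was tested as an interaction, in which 1.19% of all genes and none of the 10 passed. The largest interaction values were those of Sox8 (3.02 ± 1.21), L1cam (2.34 ± 0.75), Sox10 (1.85 ± 0.79) and Ncam1 (1.74 ± 0.57), each on the log2 scale and positive where the layer difference was smaller in the colon, and 4 of the 10 had an unadjusted p under 0.05, as had 14.7% of all genes. DESeq2 called Ncam1 and L1cam, and edgeR called Ncam1 without submucosal replicate 2 of the small intestine (2.08, adjusted p = 0.0474).

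Of 24 enteric glia genes, all 24 were lower in the submucosal small intestine and 17 in the submucosal colon, as were 2981 and 1567 of all 14090 genes. In the small intestine these included the intermediate filament gene Gfap (log2 difference -4.71 ± 0.46), the monoamine transporter gene Slc18a2 (-4.08 ± 0.82) and Plekhb1 (-3.83 ± 0.35). In the colon they included Gfap (-3.14 ± 0.47), Slc18a2 (-2.53 ± 0.85), Plekhb1 (-2.43 ± 0.36) and the potassium channel gene Kcna1 (-2.06 ± 0.54). Of 18 neural crest and glial regulators, 13 were tested, and 8 were lower and 1 higher in the submucosal small intestine. The lower ones included the POU factor gene Pou3f1 (-3.71 ± 0.78), the ETS factor gene Etv1 (-3.01 ± 0.34), Sox6 (-2.16 ± 0.53) and Sox5 (-2.07 ± 0.50), while Sox9, which the epithelium of the crypts also expresses, was higher (4.77 ± 1.00). In the colon 5 of the 13 were lower, among them Etv1 (-2.32 ± 0.36), Pou3f1 (-2.29 ± 0.79), Sox5 (-1.50 ± 0.54) and the nuclear factor gene Nfia (-1.17 ± 0.26). Of 7 ErbB receptor and neuregulin genes besides Erbb3, 4 were tested, and Nrg1, a ligand of Erbb3, was lower in the submucosal small intestine (-2.61 ± 0.79).

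Markers of other cells moved with the layer. All 5 lymphocyte and plasma cell markers and all 6 macrophage markers were higher in the submucosal plexus of both regions, and 6 of 6 epithelial markers were higher there in the small intestine and 2 of 6 in the colon. Of all 14090 genes, 3142 were higher in the submucosal small intestine and 1502 in the submucosal colon. The summed lymphocyte and plasma cell markers ran from 14000 to 132000 CPM in the submucosal and from 3.33 to 1090 CPM in the myenteric libraries of the small intestine, and from 729 to 44900 CPM against 3.07 to 296 CPM in the colon. The summed macrophage markers ran from 1970 to 10200 CPM against 131 to 1880 CPM in the small intestine and from 89.6 to 4310 CPM against 75.0 to 465 CPM in the colon, and the epithelial ones from 1480 to 7840 CPM against 12.1 to 268 CPM and from 1880 to 7290 CPM against 4.71 to 2340 CPM. Smooth muscle markers were lower in the submucosal plexus (7 of 7 in each region), as were 13 of 15 neuronal markers in the small intestine and 9 of 15 in the colon. The summed markers of myelinating Schwann cells ran from 72.6 to 158 CPM in the submucosal and from 637 to 1210 CPM in the myenteric libraries of the small intestine and from 98.4 to 392 CPM against 512 to 791 CPM in the colon, where 1 of the 4 tested markers was lower in each region. All 3 mesothelial markers were lower in the submucosal plexus of both regions (sums of 0 to 1.08 CPM against 8.70 to 341 CPM in the small intestine and of 0 to 0.190 CPM against 0.327 to 665 CPM in the colon). Of 3 tested neutrophil markers, 1 was higher in the submucosal small intestine and 2 in the submucosal colon, and 4 and 1 of 4 endothelial and 2 and 2 of 3 markers of interstitial cells of Cajal were lower. The mitochondrial share of counts was 2.84% to 9.43% in the submucosal and 11.6% to 18.8% in the myenteric libraries of the small intestine, without overlap, and 4.02% to 7.18% against 5.35% to 16.5% in the colon. Fibroblast marker sums overlapped between the layers. They were 724 to 3360 CPM in the submucosal and 855 to 1580 CPM in the myenteric libraries of the small intestine. In the colon they were 1840 to 4130 CPM against 1620 to 8960 CPM. The part of these values in the lower level of the glial genes was not tested.

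Regions were compared next. In the untreated myenteric plexus all 10 genes had a negative log2 difference of colon minus small intestine, with a median of -0.64, and Fabp7 alone passed the test, where 3.19% of all genes did and 1.53% were lower. Fabp7 stood at 105 to 216 CPM in the colon (values above) and at 305 to 431 CPM in the small intestine, without overlap, a log2 difference of -1.29 ± 0.35 (edgeR adjusted p = 0.0466). The call was marginal: leaving out any 1 of 10 of the 11 libraries raised the adjusted p above 0.05, to between 0.0528 and 0.105, with log2 differences of -1.20 to -1.37, and it held only without myenteric colon replicate 4. Ncam1 had the next lowest unadjusted p, with a log2 difference of -1.03 ± 0.40 (edgeR adjusted p = 0.178). In the submucosal plexus none of the 10 genes differed between regions (5.18% of all genes did, and 2 of the 10 had an unadjusted p under 0.05, against 17.7% of all genes), and 9 of the 10 were nominally higher in the colon, with Fabp7 at -0.56 ± 0.35 the exception.

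Region could also be compared in the treated mice. At 2 h, over both treatments, Fabp7 was lower in the colon by 1.21 ± 0.23 on the log2 scale (edgeR adjusted p = 0.00854) and was again the 1 gene of the 10 that passed, where 3.84% of all genes did and 2.07% were lower. Its values were 93.3, 157, 181 and 145 CPM in the colon and 390, 372, 383 and 260 CPM in the small intestine after PBS. After LPS they were 64.9, 152, 138 and 264 CPM in the colon and 364, 290, 330 and 372 CPM in the small intestine. This call held without each of the 16 libraries in turn. The next genes by p were Ncam1 (-0.69 ± 0.26) and L1cam (-0.58 ± 0.27), neither of which passed.

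At 24 h, over both genotypes and treatments, Fabp7 had a colon minus small intestine log2 difference of -0.95 ± 0.42 (edgeR adjusted p = 0.175), and none of the 10 genes passed, where 7.72% of all genes did. At an unadjusted p under 0.05 the count was 3 of the 10 and 20.2% of all genes. With the mouse as a block, since many mice gave both regions, the Fabp7 difference was -1.34 ± 0.38 (edgeR adjusted p = 0.0585). L1cam had the same adjusted p in that fit, with a difference of -0.70 ± 0.20. Without the colon library of mouse 1, a knockout given PBS, L1cam passed (log2 difference -0.98, edgeR adjusted p = 0.0443). As a share of the members' summed CPM, Fabp7 averaged 11.6% in the small intestinal and 7.17% in the colonic myenteric plexus of untreated mice, 16.3% and 9.12% after PBS at 2 h, and 10.8% and 6.27% in wild-type mice after PBS at 24 h.

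A few genes of the other glial lists passed between the myenteric regions. Of 24 enteric glia genes, 1 was lower in the colon in untreated mice, 2 were lower at 2 h, and 1 was lower and 1 higher at 24 h, where 3.19%, 3.84% and 7.72% of all genes passed. Of the tested regulators, 1 of 13 and 3 of 13 were lower, and at 24 h 1 of 14 was lower and 1 higher, and of the ErbB receptor and neuregulin genes 1 of 4, 1 of 5 and 0 of 5 were lower. The neurotrophin receptor gene Ngfr was lower in the colon in the untreated myenteric plexus (log2 difference -2.09 ± 0.51), at 2 h (-2.38 ± 0.34) and at 24 h (-1.25 ± 0.32). The regulator Id4 was lower in all 3 (-2.68 ± 0.71, -2.82 ± 0.73 and -1.95 ± 0.43), and Nrg1 in the first 2 (-3.29 ± 0.88 and -4.63 ± 1.06). Ednrb, the endothelin receptor gene of the enteric lineage, was lower at 2 h (-1.33 ± 0.23), as was Tcf7l2 (-0.97 ± 0.25), while the nuclear factor gene Nfia was higher in the colon at 24 h (0.60 ± 0.18). In the submucosal plexus 9 of 24 enteric glia genes were higher in the colon, as were 538 of all 14090 genes, among them the ectonucleotidase gene Entpd2 (2.29 ± 0.42), Gfap (1.92 ± 0.43) and the retinoid receptor gene Rxrg (1.75 ± 0.40). Entpd2 was also higher in the colon at 24 h (1.02 ± 0.17). Of the neuronal markers, 9 of 15 (untreated), 10 of 15 (2 h) and 12 of 15 (24 h) were lower in colonic myenteric libraries, against 215 of 14090, 271 of 13107 and 769 of 14903 of all genes. Smooth muscle markers were higher in the colon in untreated mice (4 of 7) and at 2 h (5 of 7), as were fibroblast markers (3 of 4 and 2 of 4), and none of either list passed at 24 h. Of all genes, 234 of 14090 were higher in the colonic myenteric plexus of untreated mice and 232 of 13107 at 2 h. Mesothelial markers were lower in the colon at 2 h (1 of 3) and at 24 h (3 of 3). Fibroblast marker sums were 1620 to 8960 CPM in the colon and 855 to 1580 CPM in the small intestine of untreated mice, and those of interstitial cells of Cajal (1 of 3 markers higher) were 189 to 878 CPM against 24.4 to 74.8 CPM. At 2 h the smooth muscle sums were 19800 to 73600 CPM in the colon and 1360 to 18400 CPM in the small intestine. The mitochondrial share of counts was 5.35% to 16.5% in the colonic and 11.6% to 18.8% in the small intestinal myenteric libraries of untreated mice, and 1.76% to 8.17% against 6.17% to 11.8% at 2 h. The part of these values in the lower Fabp7 was not tested.

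**Figure D3:**
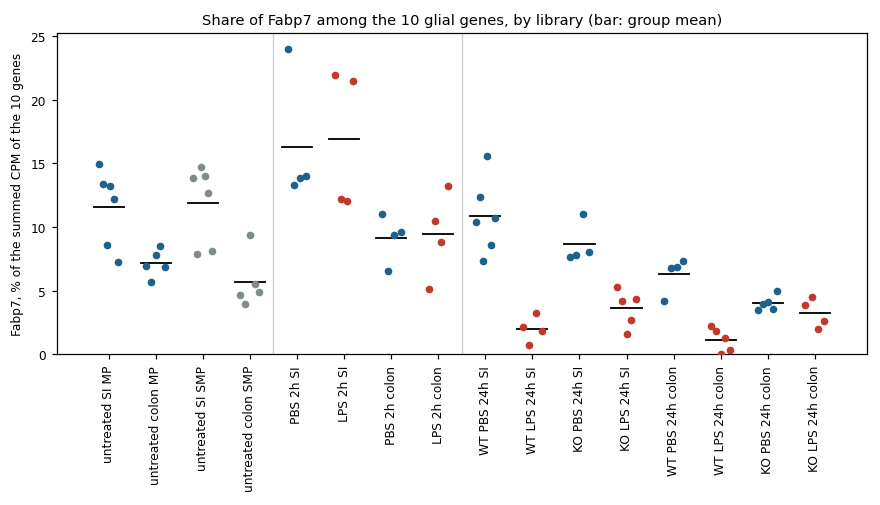
Fabp7 as a percent of the summed CPM of the 10 genes in each library, by group; points are libraries, bars are group means, blue stands for untreated or PBS myenteric plexus, grey for submucosal plexus and red for LPS. In the wild-type small intestine at 24 h the PBS libraries lie between 7.37% and 15.6% and the LPS libraries between 0.705% and 3.21%.

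At 2 h after LPS none of the 10 genes differed from PBS in either region by edgeR, and DESeq2 called none either. Of all genes, 1.1% passed for the small intestine and 0.778% for the colon. At an unadjusted p under 0.05 the count was 1 of 10 (Sox10) for the small intestine, where 5.2% of all genes had one, and 0 of 10 for the colon, where 7.53% did. Sox10 in the small intestine stood at 135, 212, 339 and 222 CPM after PBS and at 116, 74.8, 175 and 69.8 CPM after LPS. Its colon libraries stood at 77.7, 259, 272 and 222 CPM after PBS and at 134, 46.7, 158 and 115 CPM after LPS. The groups overlapped in both regions, with log2 differences of -1.06 ± 0.44 and -0.87 ± 0.44 (edgeR adjusted p = 0.712 and 0.705). The Sox10 share of the summed CPM of the 10 genes was looked at after the values were seen. In the small intestine it ranged from 7.56% to 12.3% after PBS and from 3.15% to 6.99% after LPS, without overlap. In the colon it ranged from 9.15% to 14.7% and from 3.22% to 10.6%, and these ranges overlapped.

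Fabp7, S100b and the adhesion genes had estimates nearer to 0 than Sox10 at 2 h. In the small intestine the log2 differences were -0.05 ± 0.32 for Fabp7, -0.05 ± 0.36 for S100b, -0.03 ± 0.38 for Cdh19, 0.08 ± 0.37 for Ncam1 and 0.08 ± 0.39 for L1cam. In the colon those of the same genes ran from -0.37 ± 0.38 (Cdh19) to 0.17 ± 0.36 (S100b). Sox2, Foxd3, Erbb3 and Sox8 spread more, between -1.63 ± 1.46 (Sox8, small intestine) and 0.58 ± 0.61 (Erbb3, colon). In the test of a different LPS effect between regions, 0 of the 10 passed by edgeR or by DESeq2, none had an unadjusted p under 0.05 (3.45% of all genes had one), and 0% of all genes passed. Of the other regulators, Egr2, an immediate-early and myelin-related factor gene, was higher after LPS in the small intestine (6.81 ± 1.40).

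At 24 h after LPS, Fabp7 was lower in wild-type mice, 14.3-fold in the small intestine and 6.36-fold in the colon by the fitted log2 difference. It was the 1 gene of the 10 that passed in each, where 7.17% of all genes passed for the small intestine (2.99% lower) and 7.96% for the colon (4% lower). In the small intestine the 6 PBS libraries ranged from 67.9 to 421 CPM (median 109) and the 4 LPS libraries had 12.1, 7.20, 23.9 and 8.14 CPM. In the colon the 4 PBS libraries had 49.7, 65.8, 75.1 and 119 CPM, and the 5 LPS libraries had 17.8, 17.1, 0, 24.8 and 1.06 CPM. Neither region overlapped. The log2 differences were -3.84 ± 0.95 (edgeR adjusted p = 0.00978) and -2.67 ± 0.86 (edgeR adjusted p = 0.0492). The summed CPM of the 10 genes averaged 1660 after PBS and 698 after LPS in the wild-type small intestine, and 1220 and 853 in the wild-type colon. In knockout mice the averages were 2490 and 1110 in the small intestine and 1760 and 779 in the colon. The PBS and LPS ranges of this sum overlapped in each setting.

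The small intestine call held without each of the 10 libraries in turn (log2 differences -3.42 to -4.34). It did not hold without the libraries of mice 3 and 8 together (log2 difference -3.49 ± 1.05, edgeR adjusted p = 0.0623), an alternative chosen after seeing the data, which left 2 LPS libraries. Among mice numbered 11 and above it was -3.25 ± 0.86 (edgeR adjusted p = 0.019), a split examined because the median mitochondrial share of counts was 15.4% in the 12 libraries of mice numbered 10 and below and 4.57% in the other 25. The mice numbered 10 and below were spread unevenly over the treatments: they gave 2 of 4 LPS and 1 of 6 PBS libraries in the wild-type small intestine, and 3 of 5 LPS and 0 of 4 PBS libraries in the wild-type colon. The colon call was marginal: it was lost in 8 of 9 leave-one-out fits, held without the library of mouse 5, stood at -2.35 and -2.37 (edgeR adjusted p = 0.0845 and 0.098) without that of mouse 3 or of mouse 8, and without both mice the log2 difference was -1.94 ± 0.84 (edgeR adjusted p = 0.189). Among mice numbered 11 and above it was -2.12 ± 0.82 in the colon (edgeR adjusted p = 0.108). The colon libraries of these 2 wild-type LPS mice had epithelial marker sums of 5937 and 9500 CPM, against 6.19 to 11.8 CPM in the other 3 of the group. The 0 of Fabp7 in the colon of mouse 3 allows up to 0.708 CPM, the level of 3 reads, which covers counting error only. Neutrophil marker sums ran from 5.82 to 615 CPM after LPS and from 0 to 3.52 CPM after PBS in the wild-type small intestine, and 3 of the 4 markers were higher there. In the wild-type colon they ran from 6.59 to 1990 CPM after LPS and from 0.0965 to 61.5 CPM after PBS, and 1 of the 4 was higher. Of all 14903 genes, 623 were higher after LPS in the wild-type small intestine and 590 in the wild-type colon. Myelinating Schwann cell marker sums were 46.4 to 108 CPM after LPS and 191 to 797 CPM after PBS in the wild-type small intestine, and 29.8 to 108 CPM against 177 to 342 CPM in the colon, with 1 and 0 of the 4 tested markers lower. Fibroblast marker sums in the wild-type colon were 281 to 8200 CPM after LPS and 10100 to 17700 CPM after PBS, with 1 of 4 markers lower. Mesothelial marker sums in the wild-type small intestine were 138 to 307 CPM after LPS and 402 to 1870 CPM after PBS, with 0 of 3 markers passing. The part of these other cells and of the mitochondrial share in the Fabp7 difference was not tested.

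In knockout mice none of the 10 genes passed in either region, where 0.718% of all genes passed in each. By edgeR, 2 of the 10 had an unadjusted p under 0.05 in the small intestine (11.5% of all genes) and 3 did for the colon (12.4%), and DESeq2 called 0 and 1 (L1cam, -2.10, adjusted p = 0.0316). Fabp7 stood at 157, 70.9, 144 and 459 CPM after PBS and at 162, 26.1, 11.5, 15.4 and 24.97 CPM after LPS in the knockout small intestine. The LPS library of mouse 11, at 162 CPM, made the groups overlap, and the log2 difference was -2.11 ± 0.84 (edgeR adjusted p = 0.283). Without that library Fabp7 and S100b were lower (log2 differences -3.36 and -2.50, edgeR adjusted p = 0.0311 and 0.0328). Among mice numbered 11 and above, the Fabp7 estimate in knockout mice was nearer to 0, at -0.78 ± 0.68 (small intestine) and -0.28 ± 0.69 (colon) (edgeR adjusted p = 0.812 and 0.923). In the small intestine this subset kept the LPS library of mouse 11. It left out the LPS libraries of mice 10 and 6 (11.5 and 15.4 CPM) and the PBS library of mouse 7 (459 CPM). In the knockout colon Fabp7 had 32.7, 51.9, 181, 14.8 and 86.6 CPM after PBS and 33.4, 28.6, 17.7 and 18.4 CPM after LPS, a log2 difference of -1.57 ± 0.86 (edgeR adjusted p = 0.465).

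The effect of LPS on Fabp7 was not shown to differ by genotype. The genotype by treatment terms were 1.74 ± 1.17 for the small intestine and 1.09 ± 1.17 for the colon (edgeR adjusted p = 1 and 0.749), and neither edgeR nor DESeq2 called any of the 10 genes in them, nor had any an unadjusted p under 0.05. Of all genes, 0% passed in either term, and 3.88% and 13.5% had an unadjusted p under 0.05. Among mice numbered 11 and above, with mouse 11 kept, the Fabp7 terms were 2.47 ± 1.03 and 1.84 ± 1.04 (edgeR adjusted p = 0.747 and 0.492), and without mice 3 and 8 they were 1.40 ± 1.12 and 0.37 ± 1.05. As a share of the members' summed CPM, Fabp7 averaged 10.8% after PBS and 1.95% after LPS in the wild-type small intestine, and 8.64% and 3.62% in the knockout small intestine. The colon averages were 6.27% and 1.14% in wild type and 4.01% and 3.22% in knockout mice. This share was looked at with the levels already known. The PBS and LPS ranges of the Fabp7 share did not overlap in the small intestine of either genotype nor in the wild-type colon. They overlapped in the knockout colon. A separated share was not particular to Fabp7. That of Ncam1 ranged from 18.9% to 28.7% after PBS and from 29.8% to 48% after LPS in the wild-type small intestine. The ranges of Foxd3 in the wild-type colon, and of Cdh19 and L1cam in the knockout colon, did not overlap either. Of these, L1cam was lower after LPS and the others higher.

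**Figure D4:**
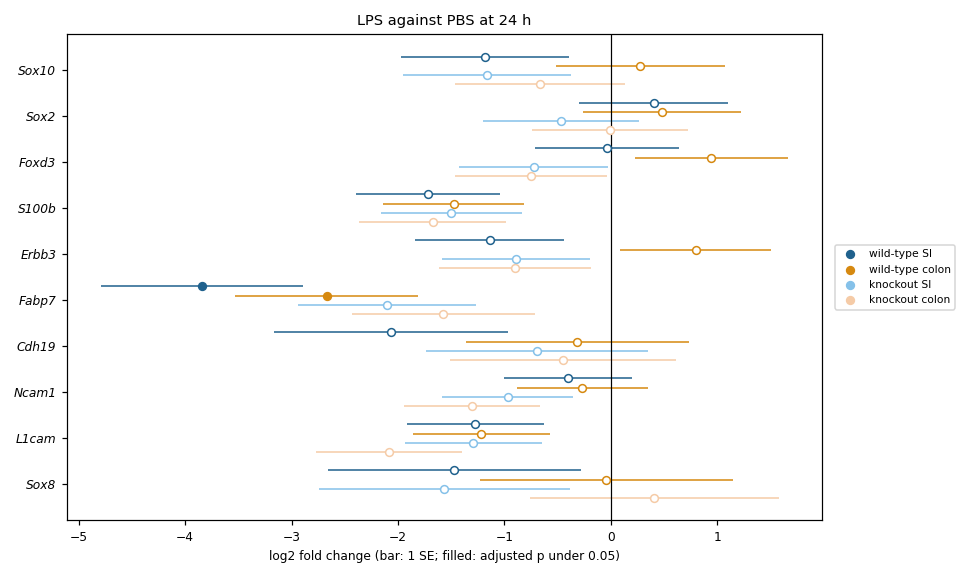
Log2 difference of LPS minus PBS at 24 h for each of the 10 genes in 4 settings (2 genotypes, 2 regions), with bars of 1 standard error; filled points have an adjusted p under 0.05. The filled points are those of Fabp7 in wild-type mice, at -3.84 and -2.67, and all 4 estimates of S100b and of L1cam lie below 0.

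S100b and L1cam, like Ncam1 and Cdh19, had negative estimates in all 4 settings and did not pass the edgeR test in any. The log2 differences of S100b were -1.72 ± 0.68 and -1.47 ± 0.66 in the wild-type small intestine and colon and -1.50 ± 0.66 and -1.67 ± 0.69 in the knockout (edgeR adjusted p between 0.122 and 0.359). In the wild-type small intestine S100b ranged from 237 to 922 CPM after PBS (median 251) and stood at 143, 215, 156 and 35.2 CPM after LPS. In the wild-type colon it stood at 332, 308, 415 and 549 CPM after PBS and at 150, 284, 21.0, 143 and 123 CPM after LPS. These wild-type groups did not overlap in either region, and DESeq2 called S100b in the small intestine (adjusted p = 0.0393). L1cam differed by -1.27 ± 0.65 and -1.22 ± 0.65 in wild type and by -1.29 ± 0.65 and -2.08 ± 0.69 in knockout mice (edgeR adjusted p between 0.18 and 0.447). In the wild-type colon L1cam passed with the mouse number as a covariate (log2 difference -2.12, edgeR adjusted p = 0.0297) and among mice numbered 11 and above (-2.36, edgeR adjusted p = 0.0377).

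None of the 4 transcription factors passed in any setting at 24 h. Sox10 stood at 88.8, 62.3, 107 and 109 CPM after LPS in the wild-type small intestine, against 98.2 to 562 CPM after PBS (median 119), a log2 difference of -1.19 ± 0.79 (edgeR adjusted p = 0.41). In the wild-type colon its LPS libraries ran from 14.4 to 633 CPM around PBS values of 167, 129, 161 and 246 CPM (log2 difference 0.28 ± 0.79). Foxd3 had log2 differences of -0.04 ± 0.68 and 0.95 ± 0.72 in wild type and of -0.72 ± 0.70 and -0.75 ± 0.72 in knockout mice, and Sox2 lay between -0.47 ± 0.73 and 0.48 ± 0.74 in the 4 settings. Sox8 lay between -1.56 ± 1.18 and 0.41 ± 1.17.

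Cdh19 stood at 3.85 and 9.85 CPM in the small intestine of mice 3 and 8, against 55.6 and 45.5 CPM in mice 16 and 13 of the same group. In the colon of mice 3 and 8 it stood at 0 and 0.422 CPM, while mice 13, 16 and 5 had 92.5, 49.3 and 210 CPM. Both libraries of these mice were thus low in Cdh19, and the log2 differences of -2.06 ± 1.10 and -0.31 ± 1.05 did not pass (edgeR adjusted p = 0.274 and 0.889). Ncam1 stood at 220 and 491 CPM in the small intestine of mice 3 and 8, within or above the 160 and 222 CPM of the other 2, and at 95.3 and 39.0 CPM in their colon, below the 176, 236 and 492 CPM of mice 13, 16 and 5. Erbb3 had log2 differences of -1.14 ± 0.70 and 0.80 ± 0.71 in the wild-type small intestine and colon, and neither passed.

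A few other glial genes passed the test after LPS at 24 h in wild-type mice. Of 24 enteric glia genes, 2 were lower and 1 higher in the small intestine, where 7.17% of all genes passed: Rxrg (log2 difference -5.00 ± 1.43), the membrane protein gene Cmtm5 (-2.93 ± 0.85) and Gfap (2.58 ± 0.63), a marker of reactive glia. In the colon, where 7.96% of all genes passed, 3 of the 24 were lower, among them Cmtm5 (-3.37 ± 0.83) and Entpd2 (-1.48 ± 0.33), and Sostdc1, a secreted antagonist gene, was higher (3.75 ± 0.93). None of the 24, of the 18 regulators or of the 7 ErbB and neuregulin genes passed in knockout mice.

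Between genotypes none of the 10 genes passed the edgeR test under PBS or LPS in either region. Across all genes, 0% passed under PBS in each region, 0.0134% under LPS in the small intestine and 0.429% under LPS in the colon. At an unadjusted p under 0.05 the count was 1 of 10 (Fabp7) under LPS in the small intestine and 0 in the other 3 comparisons, and DESeq2 called none of the 10. Of all genes, 1.72% and 4.22% had one under PBS and 7.63% and 16.4% under LPS, small intestine first. Under PBS, 9 of the 10 genes had a positive log2 difference of knockout minus wild type in the small intestine, as did 9 of the 10 in the colon, with medians of 0.88 and 0.75 against 0.00 and 0.03 over all genes. Knockout PBS libraries of mouse 7 (small intestine) and mouse 1 (colon) had summed levels of the 10 genes of 5696 and 4367 CPM, against medians of 1680 and 1320 CPM in their groups. Without these libraries the estimate was positive for 3 of the 10 genes in the small intestine and for 5 in the colon.

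Ordered by group mean, neighbouring groups mostly overlapped. In the untreated experiment the exceptions were Sox2 and S100b between colon myenteric and the next submucosal group, and Fabp7 between small intestinal and colonic myenteric plexus and again between colonic myenteric and submucosal plexus. At 2 h the exception was Fabp7, between the small intestine and the colon, and at 24 h there was none. How often neighbouring groups overlap over all genes was not computed.

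Within groups most pairs of members were positively correlated. With each group's mean subtracted from the log2 CPM, the median Pearson r over the 45 pairs of members was 0.64 in the 22 untreated libraries (44 pairs positive), 0.28 in the 16 libraries at 2 h (32 positive) and 0.59 in the 37 libraries at 24 h (45 positive). These are descriptions: libraries share depth and glial content, and pairs share genes. Against the summed enteric glia genes of the same libraries, Sox10 had r of 0.92 in untreated, 0.47 in 2 h and 0.92 in 24 h libraries, and Ncam1 had 0.88, 0.81 and 0.91. Against the summed neuronal markers, Ncam1 had r of 0.21, -0.20 and -0.20 and L1cam 0.19, -0.34 and 0.19 in the same order. Sox8 had r of 0.41, -0.46 and 0.46 with the enteric glia genes.

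The genes most like Sox10 within groups were ranked by the mean of the r values over the 3 experiments, among 9542 genes above a mean of 3 log2 CPM in each. The first 8 were Gpr37l1, a receptor gene related to Gpr37 (mean r 0.895), Sema3b (0.893), Sostdc1 (0.89), the prion protein gene Prnp (0.88), Sfrp5 (0.87), Kcna1 (0.866), Prn (0.865), which shares its locus with Prnp, and Mal (0.864), against a median of 0.03 over all ranked genes. Of the other members, Ncam1 ranked 13, Cdh19 39, Erbb3 63, L1cam 99, Fabp7 277, Foxd3 282 and S100b 766, while Sox2 and Sox8 lay below the level required. S100b and Fabp7 departed from Sox10 mainly at 2 h, with r of -0.19 and 0.14, against 0.75 and 0.73 in untreated libraries. With Spearman's rho in place of r, 6 of the first 8 genes were shared.

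**Figure D5:**
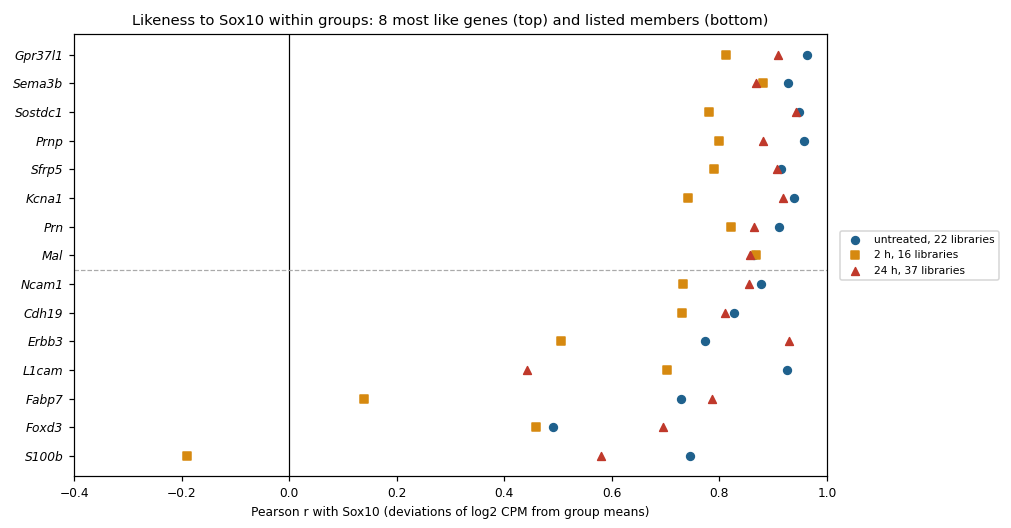
Pearson r with Sox10 across libraries, after subtraction of group means, in the 3 experiments (22, 16 and 37 libraries) for the 8 genes most like Sox10 (above the dashed line) and for the 7 members that could be ranked (below it). The 8 genes lie between 0.74 and 0.96 in all 3 experiments, and S100b and Fabp7 fall to -0.19 and 0.14 at 2 h.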

How the data were processed

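The authors deposited raw read counts per gene symbol in a pair of tables, one for the untreated and 2 h libraries and one for the 24 h libraries. Per the submitters' processing notes, Trim Galore 0.4.4, STAR 2.5.3 and DESeq2 were used with build GRCm38. The counting tool and its use of strand are not given in the sources used here. No library was pooled or left out, and none of 143 replicate pairs was identical. Each experiment was filtered by filterByExpr and fitted once over all of its groups with edgeR 4.0.16 in R 4.3.3 (TMM scaling, quasi-likelihood test, two-sided), with Benjamini-Hochberg adjustment over all genes and a threshold of 0.05. DESeq2 1.42.0, other scaling, no filter, sex, mouse number, a block by labelled sex and number or by mouse, and leaving out each library were tried. Likeness used log2 CPM with a prior count of 2 and a minimum of 3. The scripts were tested on simulated counts.

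The 10 genes, the marker lists and the rules were chosen with earlier results of these data known. All 10 genes were named throughout, with up to 4 passing genes of each glial list and direction, by size of log2 difference, and the 8 genes most like Sox10. A few genes that this rule would name are not reported here. The labels do not say how replicates were obtained in the untreated and 2 h experiments, so p-values measure only the spread between these samples. Between the myenteric plexus of the untreated regions, libraries with the same sex and number in their labels deviated together (5 of 5 pairs above an r of 0.1, lowest 0.131). This labelled number is not the replicate number used in the text. At 24 h the pairing comes from the mouse number in the labels.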

Additional observations from a re-analysis of the deposited data

Results flagged for a closer look

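Of 160 group values of the 10 genes, 7 had a library far from the others of its group, where chance gives about 1 in 20. Of these, 3 were low and 4 high, in 7 different libraries. Sox10 was low in untreated colon myenteric replicate 1 (186.2 CPM, others 286.2 to 327.4) and in the 2 h PBS colon replicate 1 (77.66 CPM, others 222 to 271.8). Sox2 was high in the 2 h LPS colon replicate 2 (19.84 CPM, others 1.561 to 2.054). In the 2 h PBS small intestine, S100b was high in replicate 2 (559.1 CPM, others 275.7 to 299.7) and Fabp7 was low in replicate 4 (259.8 CPM, others 372.4 to 390.1). S100b was high in the small intestine of mouse 11, a knockout given LPS (448.4 CPM, others 57.47 to 89.14). Erbb3 was high in the colon of mouse 1, a knockout given PBS (354.7 CPM, others 42.43 to 73.93).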

How the results depend on the processing

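No value reversed its sign past the threshold in any alternative run. The share of all genes passing in each alternative is not given here. The count of 10 in the submucosal small intestine and the count of 1 between regions at 2 h were the same in every alternative and every fit without 1 library. DESeq2 called 7 genes between the layers of the colon, 2 in the layer by region term, 2 in the wild-type small intestine after LPS at 24 h and 1 in the knockout colon. In the wild-type colon the count was 0 with no filter, with sex as a covariate and with only the groups compared. Fabp7 was also lost there with the mouse number as a covariate (adjusted p = 0.0644) and among mice numbered 11 and above (adjusted p = 0.108), where L1cam passed in its place, so that Fabp7 held in 2 of 8 alternatives. Between the layers of the colon the count was 3 with only the groups compared, without Cdh19. It was 0 in both wild-type regions without mice 3 and 8. Knockout against wild type under LPS in the colon gave 1 gene (Foxd3) among mice numbered 11 and above.

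Without 1 library, the counts ranged from 0 to 1 between untreated myenteric regions, from 4 to 8 between the layers of the colon, from 0 to 1 in the layer by region term, from 0 to 1 in the wild-type colon, from 0 to 2 in the knockout small intestine and from 0 to 1 between regions at 24 h. Without colon submucosal replicate 2 the colon layers gave 8 and without colon myenteric replicate 5 they gave 6, without small intestinal submucosal replicate 2 the layer by region term gave 1, without mouse 11 the knockout small intestine gave 2, and without the colon library of mouse 1 the regions at 24 h gave 1.

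With the sex and number in the labels as a block, the untreated myenteric regions gave 1 gene (Fabp7, -1.42, adjusted p = 0.0488), and with the mouse as a block the regions at 24 h gave 0, so that these pairings changed no call. Between the layers of the colon, Sox10 and Ncam1 also passed with the block (edgeR adjusted p = 0.0165 and 0.0452). There 2 of 4 pairs of the same sex and number lay above an r of 0.1. Their mean r was 0.0555, against -0.0115 for other pairs, and 4 pairs do not settle whether the libraries are paired. Between the layers of the small intestine 5 of 6 such pairs lay above 0.1. The cause of these changes was not tested. Depth limits Sox8 most, with 3 or fewer reads in 14 of 75 libraries.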
